A study of Mus musculus with 6 samples.

Results

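The mammary epithelium of the inguinal fat depot was followed through 35 genes of luminal, basal and milk-producing mammary cells, taken as a list of gene symbols and found in full among the 36144 symbols of the deposited gene table. The list was sorted into luminal keratins, basal genes, junction and surface genes, luminal progenitor genes, hormone-sensing genes and milk genes. The RNA came from whole inguinal white adipose tissue (iWAT) of 10-week-old female mice on the C57BL6/J strain, fed ad libitum, and each of the 6 mice gave 1 library. All 6 mice carried a floxed *Cebpa* gene (Cebpa_fl/fl). The 3 control mice had no Cre transgene (AdipoQ-Cre-), and the 3 knockout mice, named Cebpa_ASKO, were AdipoQ-Cre+ littermates of such controls. The *Adipoq* promoter that drives this Cre is active late in adipocyte differentiation, so that the deletion is aimed at adipocytes and not at epithelial, stromal or immune cells. Tissue from the left and right depots of a mouse was joined, the lymph nodes are described as taken out, and the gland was not separated from the fat. In such whole-tissue RNA, fewer cells of a type and less RNA per cell cannot be told apart.

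The inguinal fat pad of the female mouse holds a mammary gland, a tree of ducts embedded in fat. The ducts have an inner layer of luminal cells, marked by keratins such as *Krt8* and *Krt18*, and an outer layer of basal, contractile cells, marked by *Krt5*, *Krt14* and the transcription factor *Trp63*. Some luminal cells carry receptors for estrogen and progesterone and send growth signals to their neighbours, while others, which express *Elf5* and *Kit*, give rise to the cells that make milk in pregnancy and lactation. Prolactin acts through its receptor and the transcription factor STAT5 on the genes for caseins and other milk proteins.

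The mammary genes most closely tied to milk differ in the letters just before their starts, and those sequences are shown for milk genes at under 1 CPM (counts per a common library total) in each library (*Csn1s1*, *Csn2*) and for milk genes with higher mean levels (*Lalba*, *Ltf*). They are followed by the same stretch for *Elf3* and *Esr1*, the 2 listed genes that passed the test between genotypes. Each is the 250 bases before a transcription start, read 5′ to 3′ along the gene, from RefSeq on GRCm38.p6: chr5:87665958-87666207 on the plus strand, chr5:87699426-87699675 on the minus strand, chr15:98482684-98482933 on the minus strand, chr9:111019042-111019291 on the plus strand, chr1:135258473-135258722 on the minus strand and chr10:4611739-4611988 on the plus strand. Capitals mark the letters TTCNNNGAA, which STAT5 can bind and which read the same on both strands, in the first 3 sequences. In the last 3 sequences capitals mark TTGCNNAA on either strand, letters that C/EBP factors can bind.
Csn1s1: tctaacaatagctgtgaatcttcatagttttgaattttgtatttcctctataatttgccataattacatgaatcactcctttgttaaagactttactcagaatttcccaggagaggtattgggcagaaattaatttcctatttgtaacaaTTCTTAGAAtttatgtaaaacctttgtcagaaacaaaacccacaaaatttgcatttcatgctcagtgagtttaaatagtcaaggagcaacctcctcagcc
Csn2: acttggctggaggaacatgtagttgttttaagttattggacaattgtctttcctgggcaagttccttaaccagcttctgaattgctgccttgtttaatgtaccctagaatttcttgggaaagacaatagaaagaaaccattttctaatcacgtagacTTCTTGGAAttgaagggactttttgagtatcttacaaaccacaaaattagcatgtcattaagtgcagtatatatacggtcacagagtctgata
Lalba: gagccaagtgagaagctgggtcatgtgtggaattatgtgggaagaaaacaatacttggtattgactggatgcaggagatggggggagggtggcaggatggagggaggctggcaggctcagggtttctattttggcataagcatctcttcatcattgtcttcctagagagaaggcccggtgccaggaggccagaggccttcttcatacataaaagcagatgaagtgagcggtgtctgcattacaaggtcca
Ltf: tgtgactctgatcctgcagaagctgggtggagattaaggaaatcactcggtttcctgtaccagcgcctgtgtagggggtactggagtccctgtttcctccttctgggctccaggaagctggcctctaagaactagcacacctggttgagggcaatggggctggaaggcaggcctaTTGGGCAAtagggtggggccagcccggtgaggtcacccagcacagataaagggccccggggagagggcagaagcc
Elf3: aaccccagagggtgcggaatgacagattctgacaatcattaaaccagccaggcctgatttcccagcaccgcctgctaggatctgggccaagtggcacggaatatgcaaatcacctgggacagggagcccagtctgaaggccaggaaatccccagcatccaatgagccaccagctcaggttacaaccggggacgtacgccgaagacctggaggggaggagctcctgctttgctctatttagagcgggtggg
Esr1: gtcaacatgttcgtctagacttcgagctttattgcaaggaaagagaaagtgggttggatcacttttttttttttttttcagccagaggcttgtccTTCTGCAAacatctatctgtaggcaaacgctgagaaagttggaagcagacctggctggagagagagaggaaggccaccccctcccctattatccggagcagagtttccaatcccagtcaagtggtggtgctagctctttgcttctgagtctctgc
Windows from 250 bases before to 50 bases after a start were given for 27 of the 35 genes, as 33 windows in all. TTCNNNGAA was present at *Csn1s1*, *Csn2*, *Csn1s2a*, *Cldn7*, *Esr1* and *Prlr*, or 6 of these 33 windows, and in 8.30% of all windows. TTGCNNAA was present at *Elf5*, *Esr1*, *Ltf* and *Prlr*, in 6 of the 33 windows and in 10.8% of all windows. A match describes letters and not a bound site, and a window without one lacks only those letters.

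For each library the authors deposited estimated counts per transcript from kallisto, with between 33141769 and 49477671 counts per library. The counts were summed per gene and scaled to CPM (counts per a common library total, with edgeR's TMM factors), and every level below is in this unit unless TPM is named. *Cebpa* stood at 448, 465 and 498 CPM in the controls against 37.7, 45.8 and 37.2 CPM in the knockouts (log2 fold change -3.55, standard error (SE) 0.131, adjusted p = 0.000163 in edgeR's quasi-likelihood fit, Benjamini-Hochberg adjusted). A pair of control libraries stood apart. In Cebpa_fl/fl 1 the B cell receptor genes *Cd79a* and *Cd79b* were at 79.04 and 51.8 CPM, against at most 1.17 and 2.40 CPM in the other 5 libraries, and Cebpa_fl/fl 2 was the lowest library for many mammary genes and the highest for others. Whether lymph node tissue was left in Cebpa_fl/fl 1 was not tested. The log2 fold changes of 14 of the 31 tested mammary genes moved by over 1.5 times or changed sign without Cebpa_fl/fl 2, and those of 5 without Cebpa_fl/fl 1, and these values are given with each gene. Of all 16069 genes tested, 840 passed at an adjusted p below 0.05 (5.23%), 223 of them higher (1.39%) and 617 lower (3.84%) in Cebpa_ASKO, and the median log2 fold change was 0.02.

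The tissue held a clear mammary signal in both genotypes. The 35 genes together took 0.261%, 0.175% and 0.368% of all counts in the controls and 0.430%, 0.490% and 0.450% in Cebpa_ASKO. Compared per transcript length, in the authors' TPM averaged over the 6 libraries, the luminal keratins led the list, with *Krt19* at 611, *Krt18* at 416 and *Krt8* at 318 TPM. They were followed by *Csn3* at 143, *Ltf* at 126 and *Epcam* at 121 TPM, and these 6 genes were the ones with at least 100 TPM. Of the *Krt19* level kallisto placed 272 TPM on a transcript without a coding sequence. The coding transcript of *Krt19* averaged 339 TPM, below *Krt18*. A further 19 genes lay between 10 and 100 TPM, 5 genes between 1 and 10 TPM, and 5 genes under 1 TPM. The 5 lowest were *Csn1s1*, *Csn2*, *Csn1s2a*, *Wap* and *Tnfsf11*. Luminal and basal markers were both present. A list of 20 skin genes summed to 41.3, 88.2 and 44.7 CPM in the controls and 49.8, 55.4 and 60.02 CPM in Cebpa_ASKO, most of it *Sbsn* at 22.5 to 55.1 CPM and *Lgals7* at up to 18.8 CPM. The terminal skin markers *Krt1*, *Krt2*, *Lor*, *Flg* and *Krt27* were at most 0.230 CPM in any library. The part of skin in the mammary values was not tested.

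**Figure D1:**
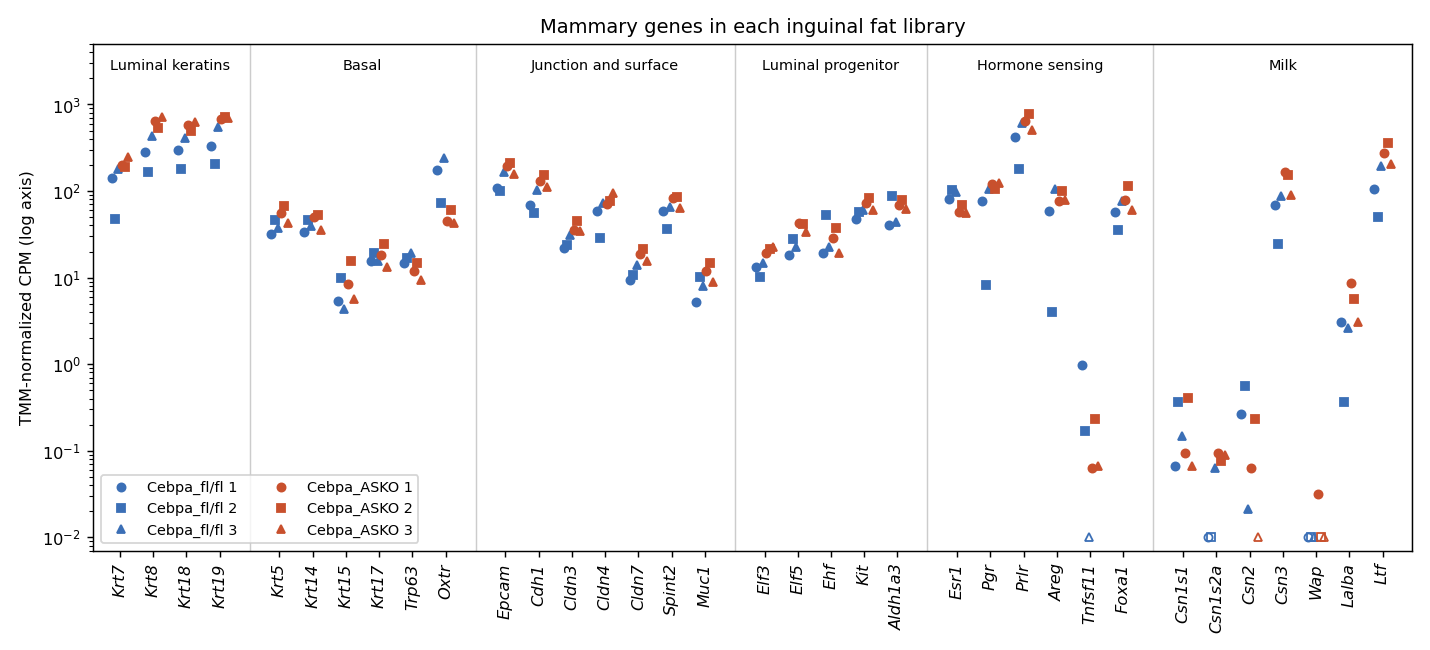
Level of each of the 35 mammary genes in each library, as TMM-normalized CPM on a log axis, with Cebpa_fl/fl in blue and Cebpa_ASKO in red and a marker shape for each replicate number. Open symbols at the bottom stand for 0 counts. The luminal keratins are the highest group, 3 of the casein genes, *Wap* and *Tnfsf11* are the lowest, and Cebpa_fl/fl 2 is far below the other libraries for *Pgr*, *Areg* and *Lalba*.

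Of the 35 genes, 31 passed the filter on low counts and were tested, and *Tnfsf11*, *Csn1s1*, *Csn1s2a* and *Wap* were not. *Elf3* was called higher and *Esr1* lower in Cebpa_ASKO. That is 1 of 31 genes higher and 1 of 31 lower, where 1.39% and 3.84% of all tested genes were called in these directions. Most of the others nevertheless lay on the higher side. Of the 31 tested genes, 26 had a positive log2 fold change, and the median was 0.61, against 0.02 over all genes tested. In 13 of the 31 the 3 Cebpa_ASKO libraries were all above the 3 control libraries, where 12.9% of all tested genes had this pattern. In *Trp63*, *Oxtr* and *Esr1* they were all below, a pattern that 13.2% of all tested genes had (26.1% in either direction). Before adjustment 13 of the 31 were higher and 3 lower at a p below 0.05, against 9.44% and 10.4% of all tested genes (19.8% in either direction). DESeq2, run on the same counts, called 8 of the mammary genes higher and 2 lower, where it called 3.98% and 6.7% of the genes to which it gave an adjusted p. For limma on log2(TPM + 1) these shares were 1.52% and 3.1%, and it called 1 mammary gene higher. Without Cebpa_fl/fl 2 the median of the tested mammary genes was 0.43, without Cebpa_fl/fl 1 it was 0.59, and without both it was 0.27. Adipocyte genes moved at the same time. A list of 12 adipocyte genes summed to between 45091 and 55975 CPM in the controls and between 13554 and 15615 CPM in Cebpa_ASKO, with *Cfd*, *Car3*, *Lpl*, *Adipoq*, *Plin1*, *Cidec*, *Retn* and *Pparg*, 8 of the 12, called lower. All 10 skeletal muscle genes listed were called higher (*Myh4*, *Acta1*, *Atp2a1*, *Ckm*, *Tnnt3*, *Actn3*, *Mylpf*, *Tnnc2*, *Pvalb* and *Tnni2*). The part of these shifts in the mammary values was not tested.

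**Figure D2:**
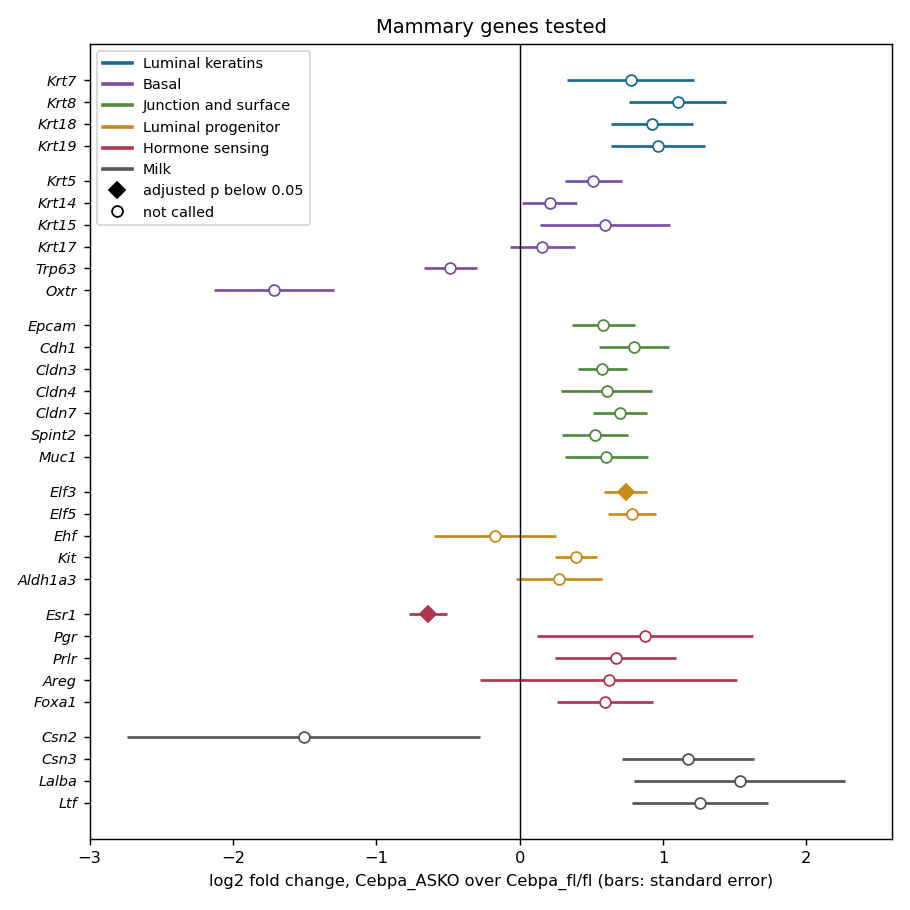
Log2 fold change of Cebpa_ASKO over Cebpa_fl/fl for the 31 tested mammary genes, by group, with bars for the standard error from edgeR's quasi-likelihood fit. Filled diamonds are the called genes, *Elf3* at 0.74 and *Esr1* at -0.64, and the remaining symbols are open. Most points lie to the right of 0, and *Oxtr* at -1.71 and *Csn2* at -1.51 lie farthest to the left.

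Luminal keratins form the filament pairs of the inner duct cells, *Krt7* and *Krt8* pairing with *Krt18* and *Krt19*. In all 4 the lowest Cebpa_ASKO library was above the highest control. Of the 4, 0 were called by edgeR and by limma, 3 had an unadjusted p below 0.05 in edgeR, and 3 were called by DESeq2. Among all tested genes 12.9% lay wholly above the controls and 9.44% were higher at an unadjusted p below 0.05. DESeq2 called 3.98% of genes higher. *Krt8*, at chr15:101996698-102004482 on GRCm38, was 282, 167 and 437 CPM in the controls and 646, 540 and 716 CPM in Cebpa_ASKO. Its log2 fold change was 1.10 (SE 0.34, adjusted p = 0.133 in edgeR's quasi-likelihood fit, Benjamini-Hochberg adjusted). *Krt18*, its partner in the next stretch of the same chromosome, was 301, 180 and 408 CPM against 573, 495 and 620 CPM, with a log2 fold change of 0.92 (SE 0.29, adjusted p = 0.138 by the same test). The lowest control library was the same for both genes, Cebpa_fl/fl 2. *Krt19*, which lies among the acidic keratin genes of chromosome 11, was 335, 206 and 543 CPM against 683, 725 and 704 CPM (log2 fold change 0.96, SE 0.33, adjusted p = 0.168 by the same test). Here the Cebpa_ASKO libraries lay close together and the control libraries were spread widely. *Krt7* was 142, 47.9 and 182 CPM against 200, 187 and 248 CPM, with a log2 fold change of 0.77 (adjusted p = 0.40), or 0.38 without Cebpa_fl/fl 2. Summed over the 4 keratins, the level was 1061, 601 and 1571 CPM in the controls and 2103, 1947 and 2288 CPM in Cebpa_ASKO, 1.96 times as high. The log2 ratio of these sums was 0.97, and 0.68 without Cebpa_fl/fl 2.

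Among the basal genes 0 of 6 were called by edgeR, with 1 higher and 2 lower at an unadjusted p below 0.05, and DESeq2 called *Oxtr* lower. Over all tested genes 9.44% were higher and 10.4% lower at an unadjusted p below 0.05, and DESeq2 called 6.7% lower. The values of the basal genes pointed in different directions. *Krt5* and *Krt14*, the keratin pair of the outer duct layer, overlapped between genotypes. *Krt14* was 33.2, 46.8 and 39.5 CPM in the controls and 49.8, 53.2 and 35.2 CPM in Cebpa_ASKO, with a log2 fold change of 0.21 (SE 0.19, adjusted p = 0.626 in edgeR's quasi-likelihood fit, Benjamini-Hochberg adjusted). *Krt5* was 31.8, 46.2 and 37.7 CPM against 55.5, 66.7 and 43.0 CPM (log2 fold change 0.51, SE 0.20, adjusted p = 0.212). Cebpa_fl/fl 2, the lowest library for the luminal keratins, was the highest control for both basal keratins. *Krt15* and *Krt17*, keratins shared with other stratified epithelia, were lower, at 4.30 to 15.5 CPM and 13.3 to 24.6 CPM over the 6 libraries, with overlapping genotypes and log2 fold changes of 0.59 and 0.16. Without Cebpa_fl/fl 2 the log2 fold changes were 0.33 for *Krt14*, 1.02 for *Krt15* and 0.26 for *Krt17*, and without Cebpa_fl/fl 1 those of *Krt14* and *Krt17* were 0.09 and 0.10. kallisto divides reads between similar keratin transcripts, so that levels of single keratins are less certain than sums.

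*Trp63* and *Oxtr* were the basal genes in which every Cebpa_ASKO library was below every control library. *Oxtr*, the oxytocin receptor through which basal cells contract and eject milk, at chr6:112473683-112489943, was 175, 71.8 and 240 CPM in the controls and 44.5, 61.1 and 42.9 CPM in Cebpa_ASKO. Its log2 fold change was -1.71 (SE 0.42, adjusted p = 0.073 in edgeR's quasi-likelihood fit, Benjamini-Hochberg adjusted). It was called without Cebpa_fl/fl 2 (adjusted p = 0.00529) and by DESeq2 (adjusted p = 0.000282), and over all alternatives its adjusted p ran up to 0.251. Adipocytes can also express *Oxtr*, and the summed adipocyte genes were lower in the same libraries, and their part in the *Oxtr* values was not tested. *Trp63*, which encodes the p63 factor of basal epithelial cells, was 14.7, 16.6 and 19.2 CPM against 12.0, 14.6 and 9.47 CPM, with a log2 fold change of -0.48 (adjusted p = 0.211). Its reads fell on transcripts from the inner start of the gene, which encode the form without the N-terminal activation domain. These transcripts took between 98.3% and 100% of its TPM in each library. *Oxtr* had the highest mean CPM of the group. The summed basal level was 275, 211 and 356 CPM in the controls and 188, 236 and 150 CPM in Cebpa_ASKO, with overlap. It was 0.681 times that of the controls (log2 ratio -0.55), and without *Oxtr* the log2 ratio was 0.26.

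**Figure D3:**
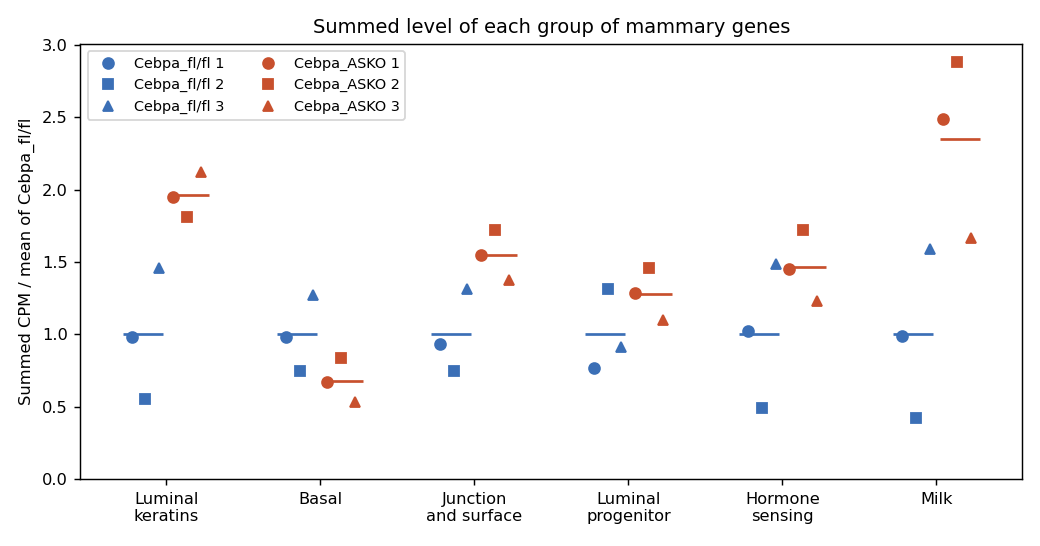
Summed CPM of each group of mammary genes in each library, divided by the mean of the 3 Cebpa_fl/fl libraries, with horizontal lines at the genotype means. The luminal keratin, junction and milk sums are higher in all 3 Cebpa_ASKO libraries than in all 3 controls. The basal sum, of which *Oxtr* is the highest gene, is 0.681 times the control mean and overlaps between genotypes. Cebpa_fl/fl 2 is the lowest library in 4 of the 6 groups.

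Junction and surface genes encode proteins of the contacts and surfaces of epithelial cells and are not particular to the mammary gland. All 7 had positive log2 fold changes between 0.53 and 0.80, and 0 of 7 were called by edgeR, with 4 at an unadjusted p below 0.05 and 2 called by DESeq2 (*Cdh1* and *Cldn7*). Over all tested genes 9.44% were higher at an unadjusted p below 0.05, and DESeq2 called 3.98% higher. *Epcam*, the epithelial adhesion molecule, was 109, 99.8 and 167 CPM in the controls and 196, 209 and 157 CPM in Cebpa_ASKO (log2 fold change 0.58, SE 0.22, adjusted p = 0.205 in edgeR's quasi-likelihood fit, Benjamini-Hochberg adjusted). *Cdh1*, E-cadherin, was 68.8, 55.0 and 104 CPM against 131, 154 and 111 CPM (log2 fold change 0.80, SE 0.25, adjusted p = 0.136 by the same test). The genotypes overlapped for *Epcam* and not for *Cdh1*. *Cldn4*, a tight junction claudin, was 58.0, 28.8 and 72.3 CPM against 70.8, 76.5 and 94.9 CPM, with a log2 fold change of 0.61 (SE 0.32, adjusted p = 0.361), or 0.30 without Cebpa_fl/fl 2. Of the other claudins, *Cldn3* had a log2 fold change of 0.57 and *Cldn7* of 0.70 (adjusted p = 0.0945), and neither overlapped between genotypes. *Spint2*, a protease inhibitor of epithelial membranes, and *Muc1*, a mucin of the duct surface, had log2 fold changes of 0.53 and 0.61 with overlapping genotypes. That of *Spint2* was 0.30 without Cebpa_fl/fl 2, and that of *Muc1* was 0.39 without Cebpa_fl/fl 1. The summed group was 1.55 times as high in Cebpa_ASKO, a log2 ratio of 0.63, or 0.46 without Cebpa_fl/fl 2.

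A second list of 28 epithelial genes, none of them among the 35, was measured in the same libraries. Of these genes 25 had a positive log2 fold change, with a median of 0.58, and in 18 of 28 the lowest Cebpa_ASKO library was above the highest control, where 12.9% of all tested genes had this pattern. By edgeR 0 of 28 were called. At an unadjusted p below 0.05 there were 19, all of them higher, where 9.44% of all tested genes were, DESeq2 called 9 higher, where it called 3.98% of all genes higher, and limma on TPM called 0. The 4 with the highest levels were *Cd24a*, *Jup*, *Dsp* and *St14*. *Cd24a*, a surface protein of luminal cells, was 209, 68.0 and 242 CPM in the controls and 344, 288 and 285 CPM in Cebpa_ASKO. *Dsp*, which encodes desmoplakin of the desmosomes, was 27.3, 21.3 and 38.5 CPM against 52.4, 68.6 and 41.3 CPM, and *St14*, the membrane protease matriptase, had a log2 fold change of 0.83. *Jup*, which encodes plakoglobin and is also found in cells that are not epithelial, was 87.6, 110 and 100 CPM against 88.1, 99.2 and 89.0 CPM and overlapped.

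The luminal progenitor group held the gene that rose. *Elf3*, an epithelial ETS transcription factor at chr1:135253575-135258568, was 13.2, 10.3 and 14.7 CPM in the controls and 19.2, 21.6 and 22.7 CPM in Cebpa_ASKO. The genotypes did not overlap, and the log2 fold change was 0.74 (SE 0.15, adjusted p = 0.0433 in edgeR's quasi-likelihood fit, Benjamini-Hochberg adjusted). The call was narrow, since it was made in 7 of 17 settings and, of the 6 fits without 1 library, in the fit without Cebpa_fl/fl 2 alone (log2 fold change 0.60, adjusted p = 0.0481). Without both Cebpa_fl/fl 1 and 2 its log2 fold change was 0.49 (adjusted p = 0.238). Over all alternatives the adjusted p ran from 0.00208 to 0.238.

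*Elf5*, the ETS factor that directs luminal progenitors to the milk-producing fate, lies next to *Ehf* on chromosome 2, at chr2:103411688-103450989. It was 18.3, 27.7 and 22.4 CPM in the controls and 42.4, 41.7 and 33.6 CPM in Cebpa_ASKO, without overlap. Its log2 fold change of 0.78 (SE 0.17, adjusted p = 0.0521 in edgeR's quasi-likelihood fit, Benjamini-Hochberg adjusted) missed the threshold, and it was called in 8 of 17 settings. *Ehf*, the neighbouring ETS factor at chr2:103263433-103303278, was 19.4, 53.3 and 22.4 CPM against 28.5, 36.9 and 19.1 CPM and had a log2 fold change of -0.17. Its highest library was Cebpa_fl/fl 2, without which the log2 fold change was 0.42, and without Cebpa_fl/fl 1 it was -0.43. *Aldh1a3*, a retinal dehydrogenase of luminal progenitors, followed the same order among controls, at 40.7, 88.1 and 44.2 CPM against 68.9, 79.1 and 61.2 CPM (log2 fold change 0.28, SE 0.30, adjusted p = 0.695 by the same test). This value was 0.71 without Cebpa_fl/fl 2 and 0.08 without Cebpa_fl/fl 1. *Kit*, the stem cell factor receptor, was 46.9, 57.5 and 60.8 CPM against 72.6, 83.3 and 60.8 CPM (log2 fold change 0.39, SE 0.15, adjusted p = 0.209 by the same test), and its lowest Cebpa_ASKO library exceeded its highest control by less than the printed digits.

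Mast cells also express *Kit*, and their genes were present. A list of 10 mast cell genes summed to 144, 233 and 82.0 CPM in the controls and 241, 174 and 231 CPM in Cebpa_ASKO. Of these, 9 were tested, all 9 had positive log2 fold changes, and 0 were called by edgeR (0 at an unadjusted p below 0.05) or by DESeq2. *Mcpt4*, a mast cell protease, was 45.1, 68.2 and 22.6 CPM against 82.4, 54.2 and 73.0 CPM, and *Tpsb2*, *Cma1* and *Cpa3* had the same lowest library, Cebpa_fl/fl 3. That library was the highest control for *Kit*, and the part of mast cells in the *Kit* values was not tested.

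The hormone-sensing group held the gene that fell. *Esr1*, which encodes estrogen receptor alpha and lies at chr10:4611593-5005614, was 81.3, 104 and 98.4 CPM in the controls and 57.3, 69.4 and 55.3 CPM in Cebpa_ASKO. The genotypes did not overlap, and the log2 fold change was -0.64 (SE 0.13, adjusted p = 0.0441 in edgeR's quasi-likelihood fit, Benjamini-Hochberg adjusted). Between 86.0% and 94.0% of its TPM in each library was on the transcript that starts right after the sequence shown above. The call was made in 6 of 17 settings, and of the 6 fits without 1 library in the fit without Cebpa_fl/fl 1 alone (log2 fold change -0.74, adjusted p = 0.0451). Without both Cebpa_fl/fl 1 and 2 the log2 fold change was -0.74 (adjusted p = 0.0923), and over all alternatives the adjusted p ran from 0.000852 to 0.289. Stromal cells and adipocytes of fat also express *Esr1*. The summed adipocyte genes were lower in Cebpa_ASKO, while a list of 10 stromal genes had a median log2 fold change of 0.01, with 0 genes called by edgeR or DESeq2, 0 at an unadjusted p below 0.05, and overlapping genotypes in each of them. Their part in the *Esr1* values was not tested.

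Of the other 4 tested genes in the group, 0 were called by edgeR or DESeq2 and 0 had an unadjusted p below 0.05. *Prlr*, the prolactin receptor and by CPM the highest gene of the group, was 415, 180 and 618 CPM in the controls and 645, 770 and 513 CPM in Cebpa_ASKO (log2 fold change 0.67, SE 0.42, adjusted p = 0.451 in edgeR's quasi-likelihood fit, Benjamini-Hochberg adjusted). Its long form, with 608 residues and the signalling tail, took between 72.9% and 78.6% of its TPM in each library, and 3 short coding forms together took between 13.0% and 20.5%. *Pgr*, the progesterone receptor and a classical target of estrogen, was 77.4, 8.10 and 105 CPM against 122, 105 and 122 CPM (log2 fold change 0.87, SE 0.75, adjusted p = 0.606 by the same test). *Areg*, the growth factor amphiregulin that hormone-sensing cells release, was 58.2, 3.96 and 104 CPM against 77.5, 100 and 78.1 CPM, with a log2 fold change of 0.62 (adjusted p = 0.783). *Foxa1*, the factor that opens chromatin for the estrogen receptor, was 56.7, 35.3 and 77.2 CPM against 79.7, 115 and 60.2 CPM, with a log2 fold change of 0.59 (adjusted p = 0.394). All 4 genes overlapped between genotypes, and in all 4 the lowest library was Cebpa_fl/fl 2. Without it the log2 fold changes were 0.30 for *Prlr*, 0.34 for *Pgr*, 0.06 for *Areg* and 0.34 for *Foxa1*. *Tnfsf11*, which encodes the cytokine RANKL and is made by hormone-sensing cells and by lymphocytes, had too few counts for the test. Its highest level, 0.980 CPM, was in Cebpa_fl/fl 1, the library with high lymphocyte genes, and in the others it was at most 0.230 CPM.

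Cebpa_fl/fl 2 was the lowest of the 6 libraries for 16 of the 31 tested mammary genes, the luminal keratins and *Csn3*, *Lalba* and *Ltf* included, and the highest for *Ehf*, *Aldh1a3*, *Esr1* and *Csn2*. *Areg* stood at 4.87% and *Pgr* at 8.88% of the mean of the other 2 controls, while *Krt18* stood at 50.8%. A list of 22 further hormone response genes was not low as a whole in this library. In it 11 of the 22 were below both other controls, 10 were above both and 1 lay between, and the list summed to 1462, 1971 and 1736 CPM in the controls, highest in Cebpa_fl/fl 2. Of those below, *Stc2* and *Greb1*, both known estrogen targets, stood at 12.6% and 13.4% of that mean. In the other direction *Calca*, the calcitonin gene, was 22.8 CPM in this library against 1.14 and 1.14 CPM in the other controls and 0.269 to 0.740 CPM in Cebpa_ASKO. *Rspo1*, an R-spondin of luminal cells, was 8.20 CPM against 1.18 and 0.445 CPM in the other controls. These genes outside the list were named after their values had been seen. Cebpa_fl/fl 2 differed in lists of other cells too. It was above both other controls for 10 of 10 stromal, 10 of 10 mast cell and 8 of 10 skeletal muscle genes. Of 20 skin genes 11 were above both and 3 below both, and of the 6 basal mammary genes 4 were above and 1 below. The part of skin in the basal keratin values was not tested. Of 12 adipocyte genes 7 were above both and 1 below both, and of the 28 further epithelial genes 1 was above and 18 below. The stromal genes summed to 13812 CPM in Cebpa_fl/fl 2 against 8090 and 7972 CPM in the other controls. The cycle stage of the mice was not given in the sources used here. With this library left out, the log2 ratio of the summed hormone-sensing genes was 0.23 in place of 0.55. Of the same 22 genes, *Ghr*, the growth hormone receptor, was the 1 called, at 558, 826 and 676 CPM in the controls and 121, 107 and 101 CPM in Cebpa_ASKO (log2 fold change -2.65, SE 0.18, adjusted p = 0.000783 in edgeR's quasi-likelihood fit, Benjamini-Hochberg adjusted). Adipocytes express *Ghr* too, and the median log2 fold change of the 22 genes was 0.21. The 1 of 22 called lower was near the 3.84% of all tested genes called lower. At an unadjusted p below 0.05 in edgeR 2 of the 22 were higher and 4 lower, against 9.44% and 10.4% of all tested genes.

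Milk genes differed widely in level. The casein genes lie in a cluster on chromosome 5, with *Csn1s1*, *Csn2* and *Csn1s2a* toward its start and *Csn3* at its end, over chr5:87666208-87932665. The first 3 encode the calcium-sensitive caseins and were close to absent, at 0.0668 to 0.408 CPM for *Csn1s1*, 0 to 0.551 CPM for *Csn2* and 0 to 0.0951 CPM for *Csn1s2a*. *Wap*, the whey acidic protein gene, had 1 count in Cebpa_ASKO 1 and 0 in the other libraries, and 0 counts in the 3 controls allow up to 0.0215 CPM. Of these 4, *Csn2* alone was tested, with a log2 fold change of -1.51 and an SE of 1.23, or -0.56 without Cebpa_fl/fl 2. The STAT5 letters were in the windows of *Csn1s1*, *Csn2* and *Csn1s2a* and not in those of *Wap*, *Lalba* or *Ltf*, and no window was given for *Csn3*.

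In *Csn3*, *Ltf* and *Lalba* the lowest Cebpa_ASKO library was above the highest control. Of the 4 tested milk genes 0 were called by edgeR, 2 had an unadjusted p below 0.05, and DESeq2 called *Ltf*. Among all tested genes 12.9% lay wholly above the controls and 9.44% were higher at an unadjusted p below 0.05. DESeq2 called 3.98% of genes higher. *Csn3*, which encodes the kappa casein that coats the casein micelle, was 68.8, 24.7 and 88.0 CPM in the controls and 166, 153 and 91.0 CPM in Cebpa_ASKO. Its log2 fold change was 1.17 (SE 0.46, adjusted p = 0.224 in edgeR's quasi-likelihood fit, Benjamini-Hochberg adjusted). *Ltf*, the iron-binding protein lactoferrin, was 106, 50.1 and 195 CPM against 274, 360 and 206 CPM (log2 fold change 1.26, SE 0.47, adjusted p = 0.206 by the same test). *Lalba*, the alpha-lactalbumin subunit of lactose synthase, was 3.03, 0.360 and 2.63 CPM against 8.72, 5.67 and 3.10 CPM (log2 fold change 1.54, SE 0.73, adjusted p = 0.313 by the same test), and its log2 fold change was 1.02 without Cebpa_fl/fl 2. In Cebpa_fl/fl 2 its 0.360 CPM equalled the 0.360 CPM of *Csn1s1* and was below the 0.551 CPM of *Csn2*. In all 3 genes the margin between the highest control and the lowest Cebpa_ASKO library was small, and Cebpa_fl/fl 2 was the lowest. The summed milk genes were 179, 76.1 and 286 CPM against 448, 519 and 300 CPM, 2.35 times as high, and the log2 ratio of 1.23 was 0.86 without Cebpa_fl/fl 2. Neutrophils also make lactoferrin. The neutrophil genes *S100a8* and *S100a9* were at most 1.16 CPM in any library. *Lcn2*, which neutrophils and epithelia share, was 67.7, 70.0 and 84.5 CPM against 116, 115 and 70.6 CPM, and the 11 neutrophil genes summed to between 76.6 and 91.4 CPM in the controls and between 79.3 and 122 CPM in Cebpa_ASKO, with *Csf3r*, *Retnlg* and *Elane* next. Of these genes 7 were tested, 0 were called by edgeR, 1 was lower at an unadjusted p below 0.05, and DESeq2 and limma each called 1 lower. The shares of all genes that were lower in these 3 ways were 10.4%, 6.7% and 3.1%. The part of neutrophils in the *Ltf* values was not tested.

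Of 23 further secretory genes 18 could be tested. Their median log2 fold change was 0.40. By edgeR 1 of the 18 was called higher and 1 lower, where 1.39% and 3.84% of all tested genes were. At an unadjusted p below 0.05 in edgeR 6 were higher and 1 lower, against 9.44% and 10.4% of all tested genes. DESeq2 called 2 higher and 1 lower, where it called 3.98% and 6.7% of genes. By limma on log2(TPM + 1) 1 was called higher and 1 lower, against 1.52% and 3.1% of genes. *Btn1a1*, which encodes butyrophilin of the milk fat globule, was 13.9, 7.88 and 21.7 CPM in the controls and 47.1, 43.0 and 48.9 CPM in Cebpa_ASKO. It rose by 1.68 on the log2 scale (SE 0.33, adjusted p = 0.0392 in edgeR's quasi-likelihood fit, Benjamini-Hochberg adjusted). *Trf*, transferrin, which milk contains and adipocytes also make, fell from 1417, 2198 and 2193 CPM to 239, 253 and 209 CPM (log2 fold change -3.05, adjusted p = 0.000984 by the same test). Among 22 further basal and contractile genes 20 were tested, with a median of 0.41, and *Itgb4*, the integrin that anchors basal cells to their matrix, was the 1 called. It was 13.1, 15.2 and 17.02 CPM against 23.5, 28.0 and 25.5 CPM (log2 fold change 0.76, SE 0.13, adjusted p = 0.0213 by the same test). Of the 20 tested, 7 were higher at an unadjusted p below 0.05 in edgeR and DESeq2 called 5 higher. The shares over all genes were 9.44% and 3.98%. For the 1 of 20 called higher by edgeR, the share over all tested genes was 1.39%. By limma on log2(TPM + 1) 0 of them were called, *Itgb4* included. Contractile genes of basal cells are also those of vessel walls. *Acta2*, smooth muscle actin, was 184, 236 and 230 CPM against 280, 336 and 262 CPM. Of 8 smooth muscle genes, led by *Acta2*, *Tagln*, *Myh11* and *Des*, 7 were tested, with a median of 0.43. Of the 7, 0 were called by edgeR, 6 were higher at an unadjusted p below 0.05 and 3 were called by DESeq2. Over all genes the shares were 9.44% higher at an unadjusted p below 0.05 and 3.98% called higher by DESeq2.

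Levels of chosen genes were also divided by *Epcam* in the same library, a ratio chosen after the values had been seen. RNA from cells that are not epithelial stays in such a ratio. For *Esr1* and *Oxtr*, which cells of fat can also express, it is therefore not a measure of epithelial make-up. The share of all genes that would lie apart after this division was not computed. The summed luminal keratins per *Epcam* were 9.74, 6.02 and 9.40 in the controls and 10.7, 9.31 and 14.6 in Cebpa_ASKO and overlapped. So did *Krt5* and *Krt14*, *Elf5*, *Ehf*, *Aldh1a3*, *Csn3*, *Lalba*, *Prlr*, *Pgr*, *Areg* and *Foxa1*. *Elf3*, the listed gene called higher, was not among the genes divided by *Epcam*. *Cdh1* and *Ltf* stayed higher in every Cebpa_ASKO library, at 1.17 and 1.67 times the control ratio. *Esr1*, *Oxtr* and *Trp63* stayed lower in every Cebpa_ASKO library, at 0.411, 0.211 and 0.460 times the control ratio. The *Esr1* ratio was 0.747, 1.04 and 0.589 in the controls and 0.292, 0.332 and 0.352 in Cebpa_ASKO. The luminal keratins over *Krt5* and *Krt14* were 16.3, 6.45 and 20.4 against 19.97, 16.2 and 29.2, and overlapped. These ratios describe the libraries and were not tested.

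**Figure D4:**
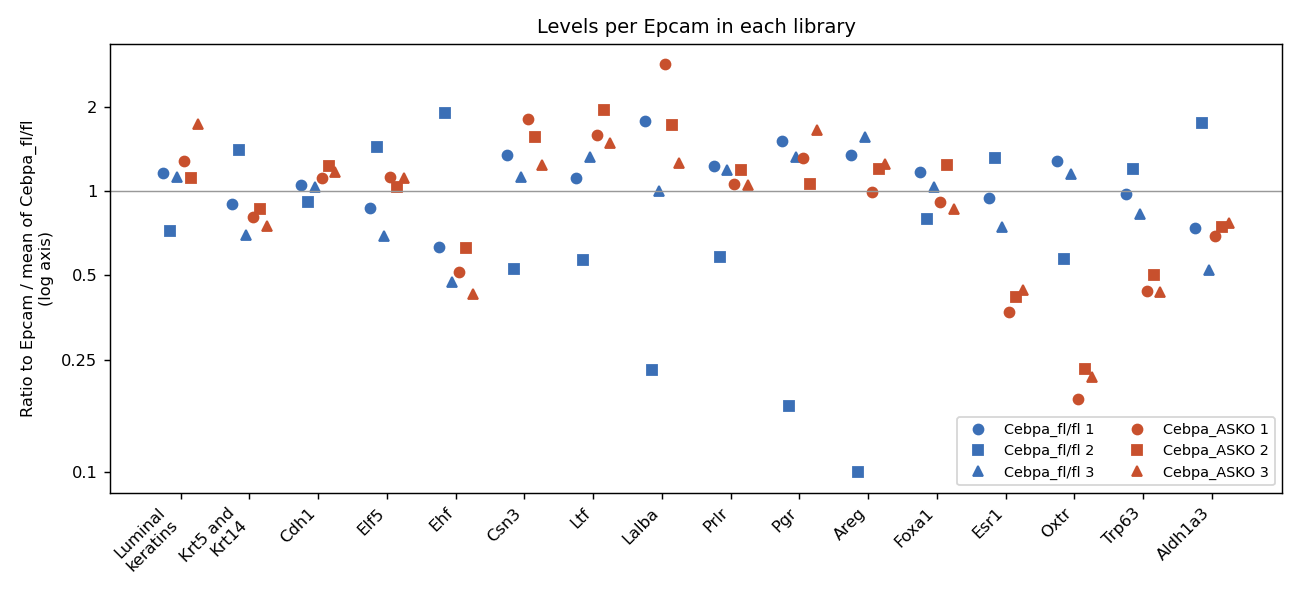
Ratio of chosen mammary genes or summed keratins to *Epcam* in each library, divided by the mean ratio of the 3 Cebpa_fl/fl libraries, on a log axis. *Esr1*, *Oxtr* and *Trp63* are below 1 in all 3 Cebpa_ASKO libraries and apart from the controls, at 0.411, 0.211 and 0.460 on average, while Cebpa_fl/fl 2 is the low point for *Lalba*, *Pgr* and *Areg*. *Esr1*, *Oxtr* and *Trp63* were also apart before division by *Epcam*. Cells of fat can also express *Esr1* and *Oxtr*, and their part in these ratios was not tested.

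Genes of other epithelia and of pigment cells were measured in the same libraries. Of the 20 skin genes, which are summed above, 11 were tested, 0 were called by edgeR or DESeq2 and 2 had an unadjusted p below 0.05. Over all tested genes 9.44% were higher and 10.4% lower at such a p. DESeq2 called 3.98% of genes higher and 6.7% lower. In Cebpa_fl/fl 2 the skin genes, at 88.2 CPM, exceeded the summed milk genes, at 76.1 CPM. Of 10 mesothelial genes 7 were tested, 0 were called by edgeR, 1 was higher and 1 lower at an unadjusted p below 0.05 and DESeq2 called 1, with summed levels of 15.2 to 20.4 CPM against 15.98 to 40.2 CPM, and the highest, *Muc16*, *Krt23*, *Lrrn4* and *Gpm6a*, include *Muc16* at 32.3 CPM in Cebpa_ASKO 2. Of 6 melanocyte genes *Dct*, a pigment enzyme, was called lower, from 1.51, 1.40 and 2.46 CPM to 0.222, 0.459 and 0.359 CPM (log2 fold change -2.35, adjusted p = 0.0211 in edgeR's quasi-likelihood fit, Benjamini-Hochberg adjusted), and the defining markers *Pmel*, *Mlana* and *Tyr* were under 1 CPM. Of the 6 melanocyte genes 3 were tested by edgeR. DESeq2 called 1 of the melanocyte genes lower, and limma on log2(TPM + 1) called 0. Over all genes edgeR called 3.84% lower and DESeq2 6.7%. The stromal genes *Col3a1*, *Dcn*, *Col1a2* and *Col1a1* overlapped between genotypes.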

How the data were processed

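Bulk RNA-seq libraries of whole iWAT, from poly-A RNA with TruSeq chemistry and paired-end reads, were analysed as 3 Cebpa_fl/fl and 3 Cebpa_ASKO samples, grouped by the labels. The authors deposited expected counts (estimated counts per transcript, not normalized) and TPM for each library, and TPM summed per gene symbol. The submitters' processing notes name kallisto 0.44.0, GRCm38.p6 and also GRCh38.p12, and the transcript annotation release is not given in the sources used here. The deposited effective lengths served as an offset in 1 alternative.

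By their identifiers, 116816 of 118489 transcripts were found in GENCODE M21 (GRCm38). Counts were summed per symbol, for 35999 of 36144 symbols, and rounded to whole numbers. For all listed genes the matched transcripts held the full TPM. edgeR 4.0.16 in R 4.3.3 was used with TMM scaling, its default filter on low counts, the quasi-likelihood test and Benjamini-Hochberg adjustment over 16069 genes, and genes were called at an adjusted p below 0.05. The standard error (SE) is the log2 fold change divided by the square root of F. Alternatives used DESeq2 1.42.0, which the study names, and limma 3.58.1. On simulated counts (15876 genes) for this comparison, 68% of genes changed 2-fold and 98% of those changed 4-fold were recovered. Of the calls made on these counts, 5.14% were false. Whether these shares hold for the mammary genes in the real libraries was not tested. No 2 libraries of a genotype agreed within sampling noise, with a chi-square of 26.9 to 239 per degree of freedom. With 3 against 3 libraries a permutation p cannot go below 0.1. The p-values weigh the genotype difference against the spread between libraries, estimated in part from all genes. With 1 library per mouse, the spread between mice cannot be told apart from that of dissection and library preparation. Limits from 0 counts use 3 counts over the 3 libraries of a genotype and cover counting error only.

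The 35 genes, the companion lists and the tests were chosen with earlier results of these data known, so no test was run over a list. All 35 genes are named, in full when called or among the 3 highest of their group by mean CPM, and companion lists by their called genes or, with none called, their 4 highest by mean CPM. Further genes were named after their values were seen. Of the lymphocyte list *Cd79a* and *Cd79b* are given, and the rest is not reported here. Promoter windows came from RefSeq (GRCm38.p6), and no protein sequences were used. Figures were drawn with matplotlib 3.10.9 in Python 3.11.15.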

Additional observations from a re-analysis of the deposited data

How the results depend on the processing

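Of 523 values of single mammary genes recomputed under the alternatives, 475 kept their direction and their side of the threshold, 23 lost a call, 20 gained one and 5 changed sign. The sign changes were *Ehf* (-0.43 to 0.42 when 1 library was left out), *Krt17* (-0.11 to 0.34), and, without Cebpa_fl/fl 1 and 2 together, an alternative chosen after seeing the data, *Ehf* at 0.29 and *Areg* at -0.33. The cause was not tested. DESeq2 called 1813 genes, 676 of them higher, and 10 of the mammary genes (*Krt8*, *Krt18*, *Krt19*, *Cdh1*, *Cldn7*, *Elf3*, *Elf5*, *Ltf*, *Esr1* and *Oxtr*). The length offset and limma with a pseudocount of 1 or 0.1 on TPM each called 1, *Elf5*, and limma without a filter called 359 genes and 0 of the mammary genes. Leaving out 1 library gave 311 to 922 called genes, 0 to 4 called mammary genes and a median log2 fold change from 0.43 to 0.84. The 4 were called without Cebpa_fl/fl 2, and 0 were called without any 1 of the Cebpa_ASKO libraries. Without Cebpa_fl/fl 1 and 2 together 472 genes and 1 mammary gene (*Oxtr*) were called, with a median of 0.27. The log2 ratio of the summed basal genes was -0.11 in TPM and 0.26 without *Oxtr*, in place of -0.55.

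The correlations of same-numbered deviations from the genotype means were 0.0956, -0.00613 and -0.259. Those of differently numbered libraries lay between -0.194 and 0.202. With 3 libraries per genotype, and control libraries that stood apart, these values cannot decide whether the replicate numbers paired the mice. With the replicate number as a block, 370 genes and 0 of the mammary genes were called.

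Genes with few counts, *Lalba*, *Csn2* and *Tnfsf11* among them, have wide errors at this depth, and a miss of the threshold does not show that levels were alike. The share of gland in each piece of tissue was not measured.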
